A study of Mus musculus with 6 samples.

Results

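10 genes that mark the inhibitory interneurons of the hippocampus were followed in mice with and without the aryl hydrocarbon receptor, Ahr, a ligand-activated transcription factor. The genes were taken by name and fall into 4 roles. Cort, Sst, Npy, Vip and Cck encode neuropeptides, Pvalb and Calb2 calcium-binding proteins, Lhx6 a transcription factor and Gad1 and Gad2 the enzymes that make GABA. All 10 were measured, by 1 probe set each, among 22180 genes on the arrays. Hippocampi were dissected from hemibrains of 3 Ahr-KO and 3 wild-type mice, and total RNA of each mouse was hybridised to its own whole-transcript array. The labels name separate mice, so p-values measure the spread between mice. They give no strain, age, treatment or details of the Ahr allele, and whether the allele lacks Ahr in all cells is not given in the sources used here.

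Interneurons are a minority of hippocampal neurons and divide into classes by the part of a target cell they reach and the peptides or proteins they make. Parvalbumin cells are fast-spiking and act on the cell body and axon initial segment of pyramidal neurons, somatostatin cells act on distal dendrites, cholecystokinin cells form a separate set of basket cells, and many VIP cells act on other interneurons. Parvalbumin and somatostatin cells arise in the medial ganglionic eminence and need Lhx6, while VIP and most cholecystokinin cells arise in the caudal eminence. In whole-tissue RNA, fewer cells of a class and less RNA per cell cannot be told apart.

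The study asks how loss of the receptor affects the hippocampus, and the receptor with its partner ARNT binds DNA with the core letters GCGTG. The 250 bases before each start used here were therefore searched for GCGTG on both strands, in RefSeq windows of build GRCm38.p6. These starts are not always the outer end of the gene. The windows of Sst, Gad1, Gad2, Lhx6 and the second Pvalb start lie inside the annotated gene span, and that of Vip lies partly inside. Of the 10 genes, 9 matched a window, with 12 windows in all since Lhx6 has 3 starts and Pvalb 2. GCGTG lay in 8 of these 12 windows, those of Cort, Sst, Npy, Gad1 and Gad2, 2 of Lhx6 and 1 of Pvalb, against 28.2% of 32851 windows of all genes. The 12 windows had a median GC content of 58.2%, against 52.4% in all windows. TGACGTCA, the cAMP response element, which is its own reverse complement, lay in the Sst window alone and in 1.55% of all windows. TATAAA, on either strand, lay in the windows of Vip and Gad1 and in 12.4% of all windows. Shown here are the last 120 bases before the start for Cort, Sst and Pvalb, whose values in the genotypes did not overlap, and for Vip, whose window holds no GCGTG. Lhx6 and Gad1, which did not overlap either, and Cck, whose window also holds no GCGTG, are not shown. Npy and Gad2 have GCGTG in their windows, and their values overlapped. Capitals mark GCGTG in Cort (bases 11 to 7 before the start) and in the window of the second Pvalb start (17 to 13), TGACGTCA in Sst (48 to 41) and TATAAA in Vip (30 to 25). The GCGTG of Sst lies farther out, 190 to 186 bases before its start.
Cort, chr4:149126764-149126883, minus strand: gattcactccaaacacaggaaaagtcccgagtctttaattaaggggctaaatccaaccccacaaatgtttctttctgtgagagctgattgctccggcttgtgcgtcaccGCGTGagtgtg
Sst, chr16:23890845-23890964, minus strand: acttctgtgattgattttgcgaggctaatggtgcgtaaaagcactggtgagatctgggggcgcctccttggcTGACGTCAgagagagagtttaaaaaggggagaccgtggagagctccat
Pvalb, chr15:78204238-78204357, minus strand: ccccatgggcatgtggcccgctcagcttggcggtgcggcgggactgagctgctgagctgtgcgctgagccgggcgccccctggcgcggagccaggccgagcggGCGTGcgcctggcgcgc
Vip, chr10:5639098-5639217, plus strand: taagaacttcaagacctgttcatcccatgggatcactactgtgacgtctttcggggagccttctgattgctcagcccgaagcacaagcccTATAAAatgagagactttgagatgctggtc
The window of the other Pvalb start holds no GCGTG, and the single Pvalb probe set gives no value for either start. A match of letters is not evidence of binding. None of the 10 genes lies on chromosome 12, which carries Ahr.

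The arrays had medians between 6.49 and 6.52 log2 over the genes tested. Ahr itself read 6.62, 6.91 and 6.74 log2 in Ahr-KO mice 1 to 3 and 7.68, 7.50 and 7.44 in wild-type mice 1 to 3, so its signal was lower but above the medians without the receptor. Which exons are deleted is not given in the sources used here, so a remaining signal does not test the labels. Prox1, a granule neuron factor of the dentate gyrus, read between 9.48 and 10.02 on all 6 arrays. Ttr, a marker of the choroid plexus that borders the hippocampus, read 13.15 in Ahr-KO mouse 1 and 12.64 in wild-type mouse 2 against 8.64 to 9.06 in the other mice, and below a value of a member or a count over a list is also given without these 2 arrays where it moved by over 1.5 times or turned direction.

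Across the list, Cort and Lhx6 had higher and Pvalb lower signals in Ahr-KO at an unadjusted p under 0.05, and no member passed the threshold of 0.05 after adjustment over all 22180 genes. The tests were limma's moderated tests, and over all genes 0 passed adjusted p under 0.05 (a share of 0%). At unadjusted p, 2 of 10 members were higher and 1 was lower, against 3.53% and 2.65% of all genes. Without the 2 arrays with high choroid plexus signal 1 was higher and 1 lower, and the share of all genes in that run is not given here. The 3 Ahr-KO values lay above all wild-type values for 4 members, Cort, Sst, Lhx6 and Gad1, and below them for 1, Pvalb, against 6.18% and 5.75% of all genes. The mean in Ahr-KO was higher for 6 of the 10 members, against 50.7% of all genes. The median difference over the members was 0.12 log2, against 0.0019 over all genes. The members were chosen with earlier results of these data known, so these shares are a description of the list.

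**Figure D1:**
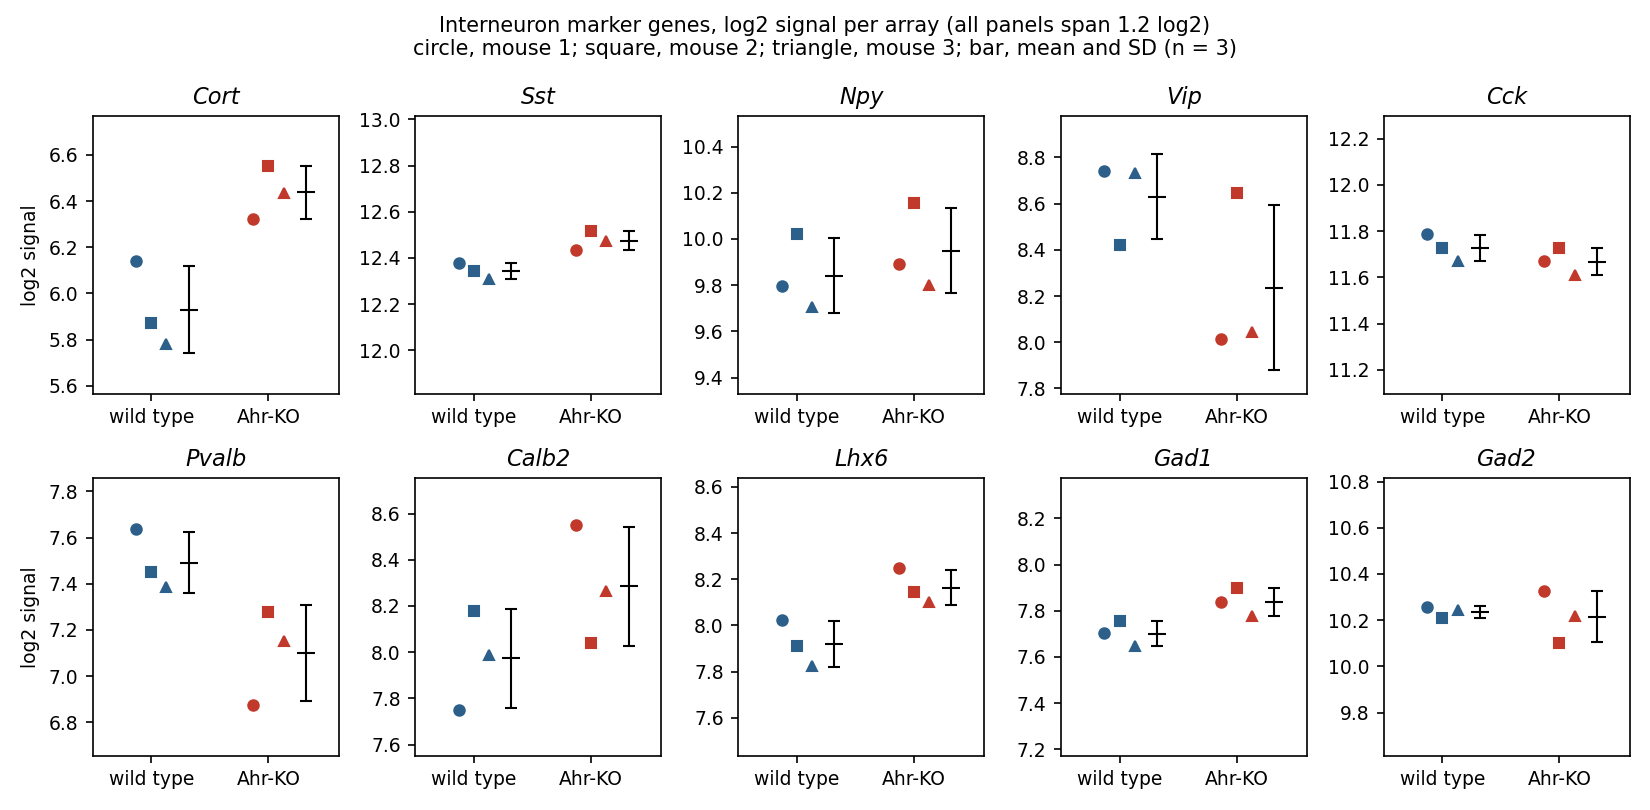
Log2 signal of each of the 10 genes on the 6 arrays, blue for wild type and red for Ahr-KO, with the mean and SD (n = 3) beside the points. Each panel spans the same height in log2 units; the 3 Ahr-KO points lie above all wild-type points for Cort, Sst, Lhx6 and Gad1 and below them for Pvalb.

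Cort encodes cortistatin, a peptide related to somatostatin that binds the somatostatin receptors and is made by a subset of GABAergic neurons. Cort read 6.32, 6.55 and 6.44 log2 in Ahr-KO mice 1 to 3 and 6.14, 5.87 and 5.78 in wild-type mice 1 to 3. Every Ahr-KO value was above every wild-type value, and the nearest were those of Ahr-KO mouse 1 and wild-type mouse 1. The means were 6.44 ± 0.11 and 5.93 ± 0.19 (SD, n = 3 each), a difference of 0.51 ± 0.11 (SE; 95% interval 0.26 to 0.76), or 1.42-fold. The p was the 40th lowest of the genes tested (limma, unadjusted p = 0.00155, adjusted p = 0.769), and 0.162% of genes differed by more in either direction. Cort sat close to the median of all genes in signal, with 46.0% of genes having a lower mean, and no detection call was used here. Cort lies at chr4:149125034-149126763, 1585 bases from Cenps, a centromere protein gene. Cenps differed by -0.03 (95% interval -0.25 to 0.19), by 0.06 without wild-type mouse 2, and by 0.07 without the 2 arrays with high choroid plexus signal. The genes farther out differed by -0.13 for Pgd, a pentose phosphate enzyme, 0.05 for Dffa, an inhibitor of apoptotic DNA cleavage, -0.02 for the kinesin Kif1b and -0.0024 for the peroxisome gene Pex14. None of these 5 neighbours had an unadjusted p under 0.05.

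Sst encodes somatostatin, the peptide of dendrite-targeting interneurons. Sst read 12.43, 12.52 and 12.47 log2 in Ahr-KO and 12.38, 12.34 and 12.31 in wild type. The groups did not overlap, but the difference was small, 0.13 ± 0.07 (SE; -0.03 to 0.29; unadjusted p = 0.0961). Sst was among the most even genes, since 3.26% of genes had a smaller residual SD, and its signal was higher than that of 99.8% of genes, near the upper end of the scale. In each genotype Cort and Sst put the mice in the same order, mouse 2, 3 and 1 in Ahr-KO and mouse 1, 2 and 3 in wild type, with the numbers only naming mice. Over all 6 arrays Pearson's r was 0.986 and Spearman's rho 1 (exact permutation p = 0.00278 for each, adjusted p = 0.0625 over the 45 pairs of members). The permutation ignored genotype, so these p-values partly restate the difference between genotypes that both genes share. Over deviations from the genotype means, which leave out that difference, r was 0.926, given without a test. By this measure Sst and Pvalb (0.962) and Npy and Gad1 (0.964) were closer, and all other pairs were weaker. A close relation within genotypes was therefore not particular to Cort and Sst. The log2 differences of Cort and Sst lay 0.38 apart (exact two-sided permutation test, p = 0.1, the smallest that 3 against 3 arrays allow). Sst sits near the upper end of the scale, where signals can be compressed, and Cort near its middle, so this gap does not compare the sizes of their changes.

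Npy, Vip and Cck, the other peptides, overlapped between genotypes. Npy, found in several interneuron classes, read 9.89, 10.16 and 9.80 log2 in Ahr-KO and 9.80, 10.02 and 9.71 in wild type. It differed by 0.11 ± 0.12 (SE; -0.16 to 0.38), by 0.0053 without Ahr-KO mouse 2, and by 0.23 without the 2 arrays with high choroid plexus signal. Vip, a peptide of interneurons that act on other interneurons, read 8.02, 8.65 and 8.04 in Ahr-KO and 8.74, 8.42 and 8.73 in wild type. Ahr-KO mice 1 and 3 were thus below all wild-type mice and Ahr-KO mouse 2 lay among them. The difference of Vip was -0.40 ± 0.17 (SE; -0.79 to 0.0026; unadjusted p = 0.0512), and -0.60 without Ahr-KO mouse 2. Cck, the peptide of cholecystokinin basket cells, which pyramidal neurons also make, read 11.67, 11.73 and 11.61 in Ahr-KO and 11.79, 11.73 and 11.67 in wild type. Its difference was -0.06 ± 0.07 (SE; -0.23 to 0.11).

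**Figure D2:**
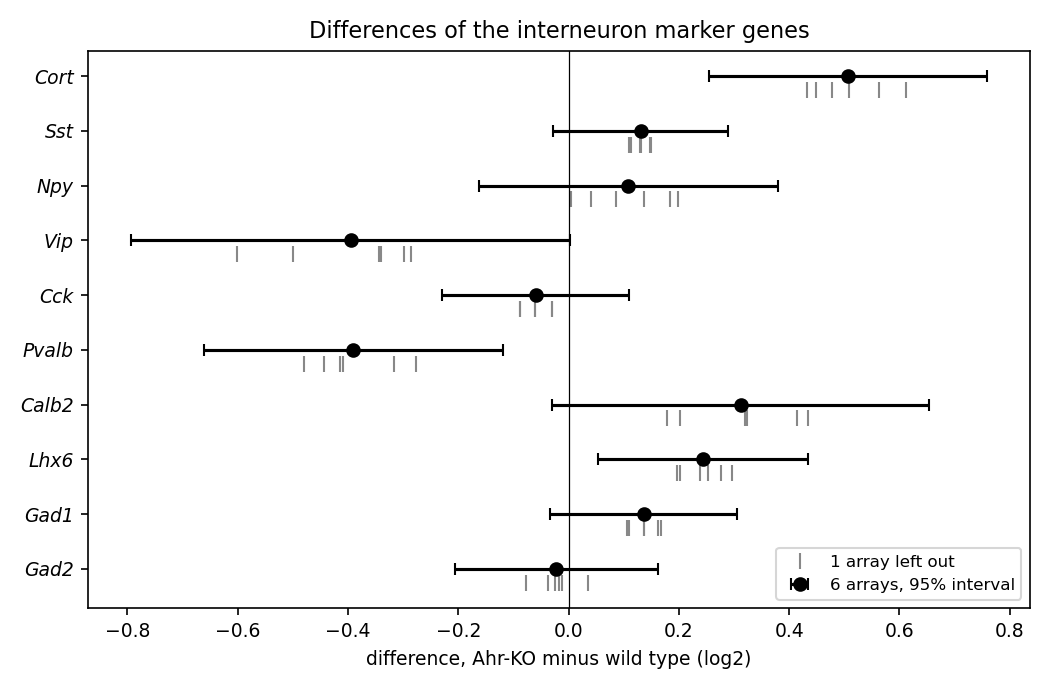
Difference of each gene between Ahr-KO and wild type in log2 units (x axis), with limma's 95% interval (black) and the differences after leaving out 1 array at a time (grey ticks). The intervals of Cort, Pvalb and Lhx6 exclude 0, and the grey ticks of Gad2 alone fall on both sides of it.

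Pvalb encodes parvalbumin, the calcium buffer of fast-spiking interneurons. Pvalb read 6.87, 7.28 and 7.15 log2 in Ahr-KO and 7.64, 7.45 and 7.38 in wild type. All Ahr-KO values were lower, that of Ahr-KO mouse 1 by the widest margin. The difference was -0.39 ± 0.12 (SE; -0.66 to -0.12), 1.31-fold lower (limma, unadjusted p = 0.0104, adjusted p = 0.770). Without Ahr-KO mouse 1 it was -0.28, and without the 2 arrays with high choroid plexus signal -0.30 (unadjusted p = 0.0462). Calb2 encodes calretinin, which marks interneurons that contact other interneurons and, in the mouse, also hilar mossy cells and immature granule neurons. Calb2 read 8.55, 8.04 and 8.26 in Ahr-KO and 7.75, 8.18 and 7.99 in wild type, with overlap. Its difference of 0.31 ± 0.15 (SE; -0.03 to 0.65; unadjusted p = 0.0685) was 0.18 without Ahr-KO mouse 1 and 0.20 without wild-type mouse 1.

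Lhx6 is the transcription factor that parvalbumin and somatostatin cells share. Lhx6 read 8.25, 8.15 and 8.10 log2 in Ahr-KO and 8.02, 7.91 and 7.83 in wild type. All Ahr-KO values were higher, by 0.24 ± 0.08 (SE; 0.05 to 0.43) on average, or 1.18-fold (limma, unadjusted p = 0.0181, adjusted p = 0.775). Without the 2 arrays with high choroid plexus signal the difference was 0.20, at an unadjusted p of 0.116. Lhx6 and Pvalb, which the same fast-spiking cells express, therefore differed between genotypes in opposite directions. Their differences lay 0.63 log2 apart, and those of Sst and Pvalb 0.52 apart. Both gave the smallest p that the design allows (exact permutation test, p = 0.1, adjusted p = 0.167 over the 5 pairs compared). Lhx6 and Sst were higher and Pvalb lower without overlap, so this p of 0.1 was fixed in advance. It only restates those separations. Lhx6 and Sst lay 0.11 apart (exact p = 0.3), and 0.05 apart without the 2 arrays with high choroid plexus signal.

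Gad1 and Gad2 encode the 2 glutamate decarboxylases that make GABA in interneurons of every class. Gad1 read 7.84, 7.90 and 7.78 log2 in Ahr-KO and 7.70, 7.75 and 7.65 in wild type, without overlap and with a difference of 0.14 ± 0.07 (SE; -0.03 to 0.31; unadjusted p = 0.101). Gad2 read 10.32, 10.10 and 10.22 in Ahr-KO and 10.26, 10.21 and 10.25 in wild type. It differed by -0.02 ± 0.08 (SE; -0.21 to 0.16). This interval holds neither the 0.51 of Cort nor the -0.39 of Pvalb, but it overlaps the Pvalb interval of -0.66 to -0.12. The signal of Gad2 was higher than that of 95.2% of genes, so the sizes of these changes are not compared. Gad2 differed by -0.09 without the 2 arrays with high choroid plexus signal. The 2 enzymes' differences lay 0.16 apart (exact permutation p = 0.2), and 0.25 apart without those arrays. Genes that move or break down GABA also differed little. All 5 measured had a higher mean in Ahr-KO, by 0.02 to 0.10 log2, against 50.7% of all genes with a higher mean, and 0 had an unadjusted p under 0.05. The count was 4 of 5 without Ahr-KO mouse 1, Ahr-KO mouse 2 or wild-type mouse 2, and 3 of 5 without the 2 arrays with high choroid plexus signal. The largest differences were those of Slc32a1, the vesicular GABA transporter, at 0.10 ± 0.10 (SE), Slc6a11, a glial GABA transporter, at 0.09 ± 0.07, and the GABA catabolic enzyme Aldh5a1 at 0.07 ± 0.09.

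7 further lists described the surroundings of these markers, and with the GABA list they held 72 measured genes. Of the 72, 0 were higher and 5 lower in Ahr-KO at unadjusted p under 0.05, against 3.53% and 2.65% of all genes. The median difference was 0.01 log2, with values from -0.01 to 0.02 over the alternatives, against 0.0019 over all genes. Ahr-KO and wild-type values were fully apart for 4 higher and 9 lower genes, against 6.18% and 5.75% of all genes. The count of lower genes was 3 with a replicate block and without Ahr-KO mouse 1, Ahr-KO mouse 3 or wild-type mouse 3. It was 8 with an intensity trend, and 7 with array weights or without Ahr-KO mouse 2. The count of higher genes reached at most 3, with array weights. Without the 2 arrays with high choroid plexus signal 1 was higher and 5 were lower. No gene of any list here passed after adjustment over all genes. The 5 lower genes on all 6 arrays were Penk, Nefh, Scn1a, Pcsk1 and Chgb.

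Of 9 other genes of fast-spiking interneurons, 7 had a lower mean in Ahr-KO, against 49.3% of all genes. Of the 9 genes, 2 were lower at unadjusted p under 0.05, against 2.65% of all genes, and the other 7 overlapped between genotypes. Without the 2 arrays with high choroid plexus signal Scn1a alone was lower at that p. Nefh, the heavy neurofilament of large axons, read 8.87, 8.90 and 8.94 log2 in Ahr-KO and 9.06, 9.18 and 9.22 in wild type, a difference of -0.25 ± 0.08 (SE; unadjusted p = 0.00975). Scn1a, the sodium channel on which fast-spiking cells depend, read 9.54, 9.50 and 9.48 in Ahr-KO and 9.74, 9.75 and 9.70 in wild type, a difference of -0.23 ± 0.07 (unadjusted p = 0.00997). Neither overlapped between genotypes. Kcnc1, a fast potassium channel, differed by -0.09 ± 0.07, and the list's median was -0.04. The other 6 differed by -0.08 to 0.09. The mean level of the 9 genes, which includes Nefh and Scn1a, lay between 8.59 and 8.63 on the Ahr-KO arrays. On the wild-type arrays it lay between 8.67 and 8.73. Such a separation was not particular to this list. The mean level of 14 other interneuron class markers was also lower on all Ahr-KO arrays. That of the 5 genes that move or break down GABA was higher on all of them. Nefh and Scn1a are also made by other neurons.

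**Figure D3:**
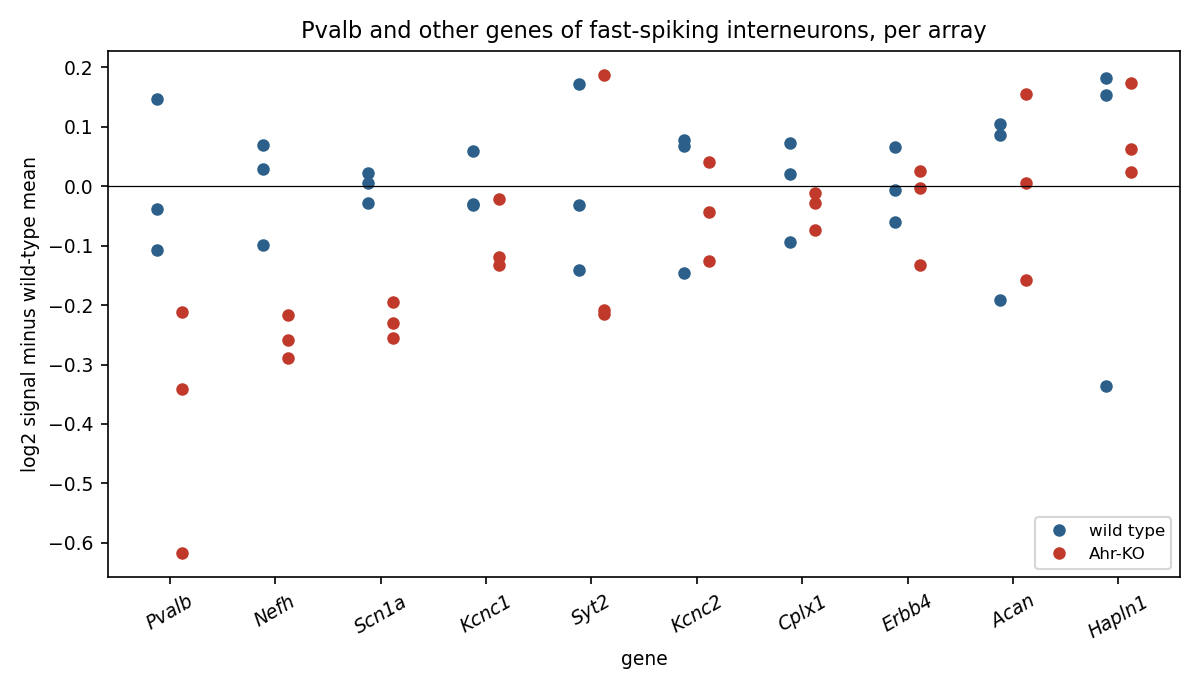
Log2 signal of Pvalb and 9 other genes of fast-spiking interneurons on each array, as the difference from that gene's wild-type mean, blue for wild type and red for Ahr-KO. The 3 Ahr-KO points lie below all wild-type points for Pvalb, Nefh and Scn1a, and the points mix for the other 7.

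Among 7 other interneuron peptides Penk, the enkephalin precursor, stood lower in Ahr-KO. It read 8.40, 8.63 and 8.59 log2 against 8.73, 8.96 and 9.07 in wild type, a difference of -0.38 ± 0.11 (SE; unadjusted p = 0.00784), and it did not keep a p under 0.05 without the 2 arrays with high choroid plexus signal. Nppc, a natriuretic peptide, differed by -0.15 ± 0.12 and Tac1, the substance P precursor, by 0.07 ± 0.09. Of 10 proteins that process peptides or fill dense-core granules, 2 were lower at unadjusted p under 0.05 and 4 did not overlap, all lower in Ahr-KO, against 2.65% and 5.75% of all genes. The 2 calls fell to 0 with the replicate number as a block and without Ahr-KO mouse 1, Ahr-KO mouse 3 or wild-type mouse 3. They fell to 1 without Ahr-KO mouse 2, without wild-type mouse 2 and without the 2 arrays with high choroid plexus signal. They also fell to 1 with choroid plexus signal as a covariate, and rose to 4 with an intensity trend and 3 with array weights. Pcsk1, a prohormone convertase, differed by -0.23 ± 0.09 (SE; unadjusted p = 0.0253), Chgb, chromogranin B, by -0.16 ± 0.07 (0.0486) and Scg5, a convertase chaperone, by -0.15 ± 0.08. Pam, the peptide-amidating enzyme, named after its values were seen, differed by -0.15 ± 0.08. Of 12 receptors for somatostatin, Npy, Vip and cholecystokinin 0 had an unadjusted p under 0.05. The neuropeptide Y receptor Npy1r differed by 0.09 ± 0.09, the cholecystokinin receptor Cckbr by -0.34 ± 0.38 and the Vip receptor Vipr2 by 0.10 ± 0.13.

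Transcription factors of the lineage of Lhx6 showed small differences. Of 8 measured factors of the medial eminence 0 had an unadjusted p under 0.05, and 3 were higher without overlap, against 6.18% of all genes. These were Dlx5 at 0.17 ± 0.07 (SE), Dlx2 at 0.14 ± 0.08, both homeobox factors of forebrain GABAergic lineages, and Sox6, named after its values were seen, at 0.08 ± 0.07. Satb1 differed by -0.26 ± 0.15. Without the 2 arrays with high choroid plexus signal Lhx8 was higher, by 0.26, and Satb1 and Dlx6 were lower, by -0.34 and -0.24, at unadjusted p under 0.05; Lhx8 and Dlx6 were named after their values were seen. Leaving out Ahr-KO mouse 2 gave 1 higher and 1 lower factor at that p, and leaving out wild-type mouse 2 gave 1 lower. An intensity trend, quantile normalization or the filter at the median level gave 1 higher factor, and array weights gave 2. Of 7 genes of the caudal lineage 0 had an unadjusted p under 0.05, with Adarb2 at 0.20 ± 0.10, the transcription factor Npas3 at -0.08 ± 0.07 and the serotonin receptor Htr3a at 0.10 ± 0.09. Of 14 other class markers 0 had an unadjusted p under 0.05. Reln, the secreted reelin of neurogliaform and other cells, differed by -0.30 ± 0.13, the glutamate receptor subunit Grin3a by -0.16 ± 0.08 and Lamp5 by -0.31 ± 0.23. Reln was lower at unadjusted p under 0.05, by -0.44, without the 2 arrays with high choroid plexus signal.

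Among the members, Vip and Calb2 varied the most between mice of one genotype, with 96.5% and 92.4% of genes having a smaller residual SD. They ranked the 6 arrays in exactly opposite order, Vip from wild-type mouse 1 down through wild-type mouse 3, Ahr-KO mouse 2, wild-type mouse 2 and Ahr-KO mouse 3 to Ahr-KO mouse 1. The relation was noticed in the data before it was tested. Over the 6 arrays Pearson's r was -0.897 (exact permutation p = 0.00139) and Spearman's rho -1 (exact p = 0.00278). All 45 pairs of members were computed, and both values had an adjusted p of 0.0625, which Cort and Sst shared as the lowest. The permutation again ignored genotype. Without the 2 arrays farthest from the median of Vip, r was -0.816, and over deviations from the genotype means it was -0.826, both given without a test. Calb2 also ran against Pvalb, with r at -0.920 over the 6 arrays and -0.901 over deviations from the genotype means. For that pair rho was -0.829, and r was -0.438 without the 2 arrays farthest from the median of Pvalb. An opposite course to Calb2 was therefore not particular to Vip.

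Markers of neocortex, which adjoins the dissected tissue, were mixed along this order of arrays. In falling order of Vip, the mean deviation of the 7 measured neocortex markers was 0.18, 0.08, 0.16, -0.15, -0.08 and -0.20 log2. Cux2, a factor of upper cortical layers, read 7.74, 7.67, 7.58, 7.16, 7.10 and 7.08 in that order, and fell along with Vip. Tbr1, a factor of cortical projection neurons, read 8.73, 8.38, 8.64, 8.03, 8.16 and 7.90. Fezf2, a factor of deep-layer neurons, read 9.55, 9.57, 9.57, 9.59, 9.61 and 9.75, lowest where Vip was highest. Tbr1, Fezf2, Rspo1 and Scnn1a were named after their values were seen; Lamp5 was also higher on the 3 arrays with the highest Vip, while Rorb, Rspo1 and Scnn1a followed no such split. The levels of the whole marker list spanned 8.22 to 8.58 in Ahr-KO and 8.27 to 8.60 in wild type. None of the 7 had an unadjusted p under 0.05 between genotypes, the lowest being that of Rorb (0.15 ± 0.09, SE), and none read near the bottom of the scale. Their part in the values of Vip and Calb2 was not tested.

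**Figure D4:**
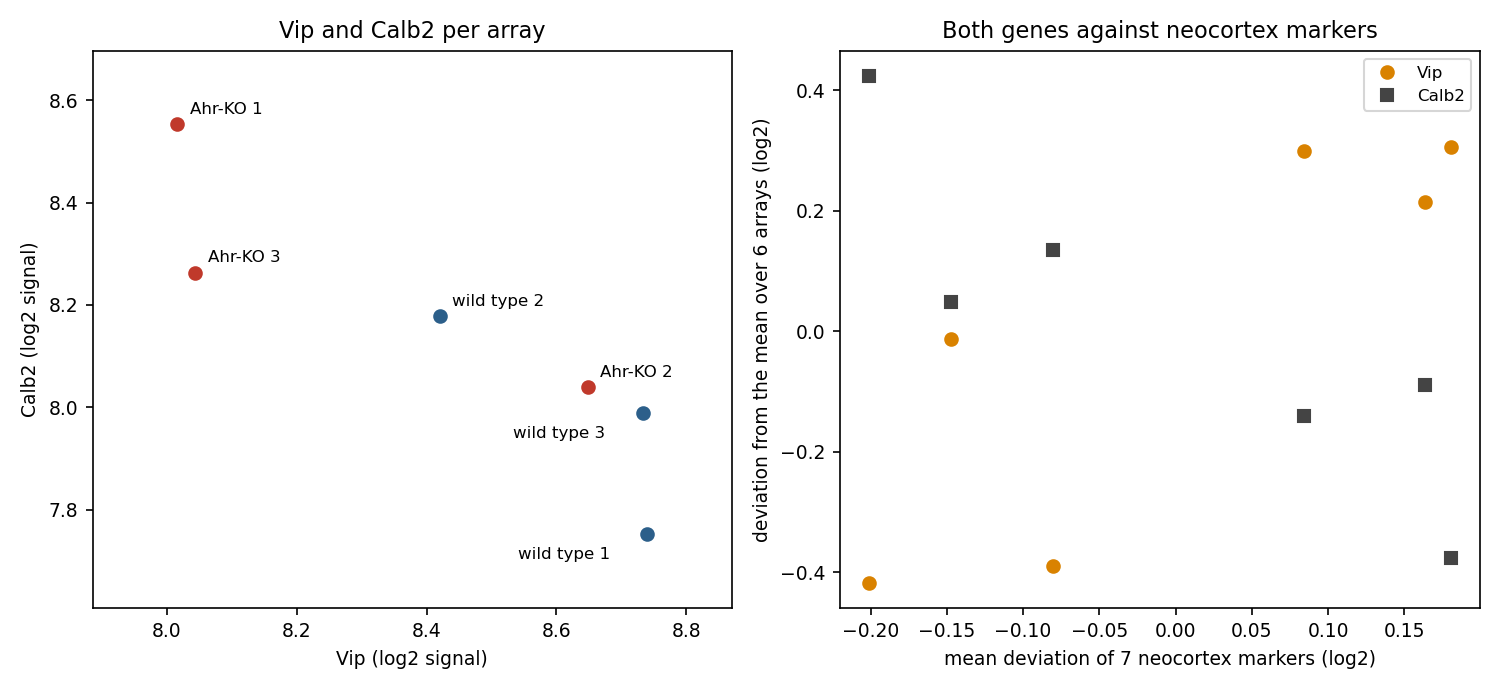
Left, log2 signal of Calb2 against that of Vip on the 6 arrays (blue, wild type; red, Ahr-KO), falling from Ahr-KO mouse 1 to wild-type mouse 1. Right, deviations of both genes from their means against the mean deviation of 7 neocortex markers, with 1 point per array and gene; Vip is high and Calb2 low on the 3 arrays to the right.

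Other markers of neighbouring tissue and cells had no gene past the threshold after adjustment. Between genotypes 0 of 5 striatum, 0 of 8 thalamus, 0 of 9 choroid plexus and 0 of 7 microglia markers had an unadjusted p under 0.05. The lowest p in these lists belonged to Gpr6 (-0.37 ± 0.16, SE), the kinase Prkcd (-0.22 ± 0.11), the tight junction gene Cldn2 (0.40 ± 0.38) and Tyrobp (-0.21 ± 0.12). Of 10 markers of hippocampal principal neurons Prox1 was higher (0.28 ± 0.10), of 7 oligodendrocyte markers Ermn was lower (-0.34 ± 0.14), and of 8 astrocyte markers Sox9 was higher (0.24 ± 0.08) and Fgfr3 lower (-0.37 ± 0.09), all at unadjusted p under 0.05. Without the 2 arrays with high choroid plexus signal Prox1 was joined by Bok, C1ql2 and Neurod2 (all higher) and Wfs1 (lower), Gpr6, Slc17a6, the choroid plexus gene Clic6 and Fgfr3 were lower, and Ermn and Sox9 no longer had such a p; C1ql2, Neurod2 and Clic6 were named after their values were seen. The mean level of the oligodendrocyte list was lowest in Ahr-KO mouse 1, at 9.13 against 9.51 to 9.60 in the other mice. That mouse also had the lowest Pvalb and Vip and the highest Calb2, Lhx6 and Gad2 of the 6. The part of tissue composition in these values was not tested.

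**Figure D5:**
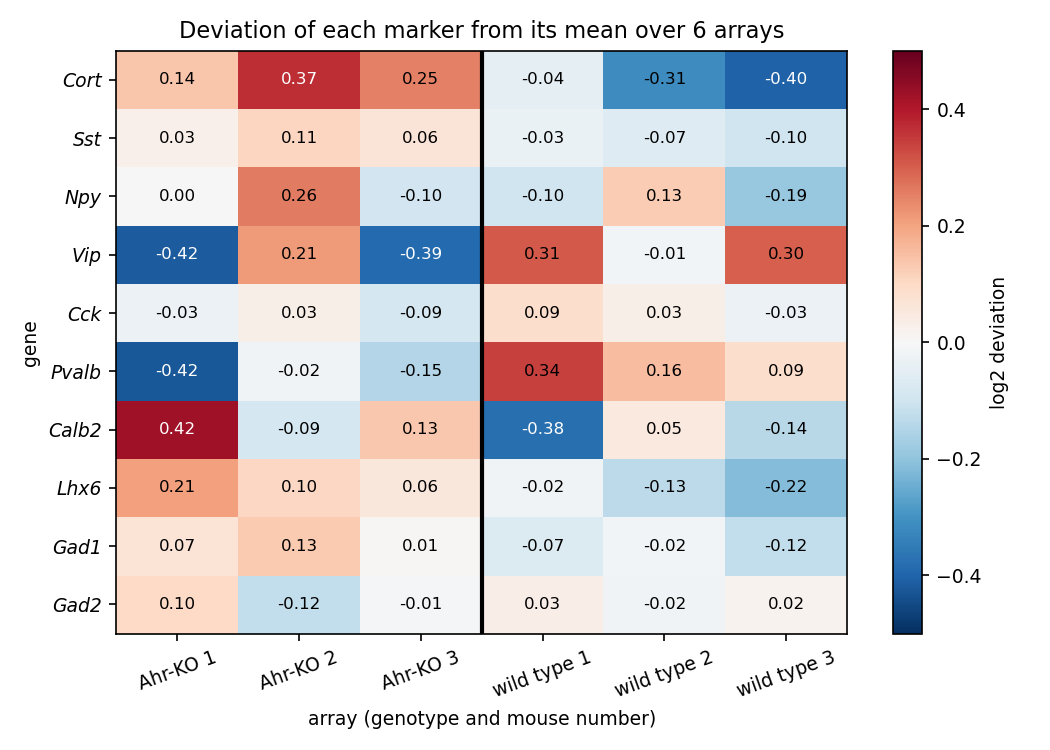
Deviation of each gene (rows) from its own mean over the 6 arrays (columns, Ahr-KO left and wild type right of the line), in log2 units with the value printed in each cell. Cort is positive on the 3 Ahr-KO arrays and Pvalb negative on them, while Vip and Calb2 change sign within each genotype.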

How the data were processed

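Total RNA from Trizol extracts was labelled with the GeneChip WT PLUS kit, per the labels' protocols. Each deposited value is the log2 signal of a probe set, and the submitters' processing notes name Affymetrix Expression Console and, as the method, RMA. RMA makes array distributions alike, so a global shift in RNA is removed. High array signals can also be compressed, which was not examined here. Of 41345 rows, 23521 carry 1 symbol in the platform annotation; 23328 of these were updated through Entrez IDs to RefSeq (GRCm38.p6), and the brightest probe set per gene gave 22180 genes. The fit used limma 3.58.1 under R 4.3.3 (no trend, no covariate, 4 residual and 4.33 prior degrees of freedom, two-sided, Benjamini-Hochberg over all genes), after the code was tested on simulated data. The number of arrays limits the precision. Genes named are the members, Ahr, Ttr, the neighbours of Cort and up to 3 of each list by lowest p; others are said to be chosen after their values were seen. The members and lists were chosen with earlier results of these data known. Alternatives changed the variance model, weights, scaling, filter, probe sets, block, covariate and arrays. Mice differ between groups, and deviations of same-numbered arrays correlated at -0.153, -0.215 and 0.0524. Scan dates were not used here, so batches were not examined. Figures were drawn with matplotlib 3.10.9.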

Additional observations from a re-analysis of the deposited data

How the results depend on the processing

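The differences of the 10 members kept their direction in 158 of 159 runs over 16 alternatives (Cort has 15, since it lies under the median filter), the exception being Gad2 at 0.035 without Ahr-KO replicate 2, within -0.077 to 0.035 when 1 array was left out. Cenps turned to 0.055 without wild-type replicate 2, within -0.11 to 0.055 when 1 array was left out, and to 0.072 without both arrays of high choroid plexus signal. The intensity trend (robust or not), median filter, replicate block and averaging of probe sets left each member's difference unchanged. Those runs could not turn a direction, so the count of 158 holds results that were fixed in advance. No member passed after adjustment in any run. With an intensity trend, with or without the robust option, 2 genes of all passed, neither a member, and 6 members had an unadjusted p under 0.05 in place of 3. Leaving out 1 array gave 0.43 to 0.61 for Cort, -0.48 to -0.28 for Pvalb and 0.20 to 0.30 for Lhx6. Unadjusted p stayed under 0.05 in all 15 runs of Cort, all 16 of Pvalb and 13 of 16 of Lhx6, the others being those without Ahr-KO replicate 1, without wild-type replicate 3 and without the 2 choroid plexus arrays. With the replicate number as a block, Cort differed by 0.51 (unadjusted p = 0.00513) and Pvalb by -0.39 (0.0242), and 3 members had an unadjusted p under 0.05; the numbers do not pair mice. With Ahr-KO replicate 2 left out, 5 members had an unadjusted p under 0.05. The count was also 5 without wild-type replicate 2 and with choroid plexus signal as a covariate. It was 2 without Ahr-KO replicate 1, without wild-type replicate 3 and without the 2 choroid plexus arrays. Counts in alternative runs, here and above, stand without the share of all genes called in the same run. A changed count is therefore not read as a result about the members or lists. Quantile normalization gave Sst 0.09. The cause of these changes was not tested. Signals near the array median, as for Cort, may lie close to background.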

Other observations

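Several genes of principal neurons and of their inputs, chosen after their values were seen, were high on the same arrays as Vip. Cckbr, a cholecystokinin receptor, read 9.38, 8.97 and 9.14 log2 in wild-type mouse 1, wild-type mouse 3 and Ahr-KO mouse 2, against 7.94, 8.27 and 8.03 in Ahr-KO mouse 1, Ahr-KO mouse 3 and wild-type mouse 2. Slc17a6, a vesicular glutamate transporter abundant in thalamus, read 8.51, 8.83 and 8.40 against 7.62, 7.91 and 7.82 in the same order. Lamp5 read 9.53, 9.35 and 9.45 against 8.57, 8.83 and 8.90. Each set of 3 holds mice of both genotypes, and the values are given as a description with no test.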
